A study of Mus musculus with 35 samples.

Results

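Hspa5, Hsp90b1, Dnajb9, Sdf2l1, Pdia4, Pdia6, Creld2, Manf, Herpud1 and Xbp1 are genes of the unfolded protein response, and their messenger RNA was followed here in 35 mouse lungs. They were chosen by gene symbol: each symbol named 1 row of a table of 22211 genes, and all 10 were among the 16786 genes tested. The series asked how removal of neutrophils changes the lung transcriptome at 2 times of day. All mice were C57BL/6 males of 7 to 9 weeks, and the left lung lobe was perfused and frozen. Wild type mice received anti-Ly6G (clone 1A8), an antibody against a neutrophil surface protein, at 3 µg per g of body weight, with 7 lungs at ZT16 and 7 at ZT4. MRP8-Cre;iDTR-flox mice received diphtheria toxin (DT) at 10 ng per g, with 3 lungs at ZT16 and 4 at ZT4. Wild type control mice received IgG at 3 µg per g, with 7 lungs at ZT16 and 7 at ZT4. All agents were injected under the skin on 2 days in a row. ZT counts the hours since lights on, so ZT4 lies in the rest phase of the mouse and ZT16 in its active phase.

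These groups limit what a difference can mean. ZT16 mice lived in cabinets with an inverted light cycle and ZT4 mice in the normal facility, so time of day and housing cannot be told apart. The control and anti-Ly6G groups each held 3 lungs of a July 2017 batch and 4 of a September 2017 batch. All DT lungs came from an April 2018 batch that held no other mice, so DT, the genotype and the batch cannot be told apart, and levels of DT lungs were not tested against those of other lungs. In the DT mice, the MRP8 promoter drives Cre, which switches on the toxin receptor in neutrophils and in any other cell that uses that promoter. Each sample was taken as a separate mouse, from the labels' statement of 3 or 4 mice per group and batch.

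The unfolded protein response is how a cell answers to misfolded protein in the endoplasmic reticulum (ER), the compartment where secreted and membrane proteins fold. The sensors IRE1, PERK and ATF6 in the ER membrane switch on the transcription factors XBP1, ATF4 and cleaved ATF6, which raise chaperones, folding enzymes and the machinery that degrades failed proteins. In the lung, surfactant-making alveolar type 2 cells, secretory airway cells and plasma cells carry a heavy ER load. In whole tissue, fewer cells of a type and less RNA per cell cannot be told apart.

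Many promoters of this response carry a short element known to be read by ATF6 and XBP1, in the form CCAAT and CCACG with any 9 bases between them (ER stress response element, ERSE) or ATTGG and CCACG with any 1 base between them (ERSE-II). The windows searched ran from 250 bases before to 50 bases after each RefSeq gene start on GRCm38.p6, on both strands, and 9 of the 10 genes had one. ERSE was present in 4 of the 9 windows, against 0.119% of all 32851 windows, and ERSE-II in 1 of 9, against 0.0365%. Another element, TGACGTGG (the core of the unfolded protein response element), was in 0 of the 9 windows and in 0.676% of all windows. The matches are given because they are the sequence feature that some of the genes share. Each is printed along its gene's strand, with the element in capitals, ERSE in either direction for the first 5 and ERSE-II for the last.
Hspa5, chr2:34772020-34772048, plus strand: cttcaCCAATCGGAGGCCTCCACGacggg
Hsp90b1, chr10:86705633-86705661, minus strand: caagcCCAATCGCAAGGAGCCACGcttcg
Hsp90b1, chr10:86705528-86705556, minus strand, element on the opposite strand: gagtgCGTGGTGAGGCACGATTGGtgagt
Pdia6, chr12:17266486-17266514, plus strand: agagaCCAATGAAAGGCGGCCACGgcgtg
Creld2, chr15:88819515-88819543, plus strand, element on the opposite strand: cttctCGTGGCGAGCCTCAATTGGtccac
Herpud1, chr8:94386372-94386392, plus strand: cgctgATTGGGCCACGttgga

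The elements began between 212 bases before the RefSeq gene start, in Hsp90b1, and 52 bases before it, in Herpud1. Gene coordinates given with each gene are from GENCODE, whose Hspa5 gene begins upstream of the RefSeq start, so the Hspa5 element lies in a GENCODE exon of that gene. These are matches of letters in a fixed window, and binding was not measured.

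Library totals lay close together. The deposited values, which are normalised by the authors and of unknown read depth, summed to between 962649 and 1033550 per library, with 15351 to 15802 genes at a value of 1 or more in each lung. The alveolar type 2 marker list, 8 genes such as the surfactant gene Sftpc, summed to between 22683 and 30989 in every lung. The 8 mature neutrophil markers summed to 23.0 to 38.6 in ZT16 anti-Ly6G lungs and 26.3 to 90.7 in ZT16 control lungs. At ZT4 they summed to 28.2 to 61.9 in anti-Ly6G lungs and 48.8 to 776 in control lungs. Anti-Ly6G and control lungs therefore overlapped in these markers at both times. The medians were lower in anti-Ly6G lungs, 29.8 against 58.3 at ZT16 and 43.2 against 64.2 at ZT4. In DT lungs, of another batch, the markers summed to 30.6 to 59.5 at ZT16 and 37.3 to 42.9 at ZT4. The value of 776 belonged to 1 ZT4 control lung, September 3, named here by its batch and its number in the table. The next highest ZT4 control lung was at 202. No marker of any list was at 0 in any lung. The same held for every gene of the table, so it does not show that the markers were detected.

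Between times of day, 3 of the 10 genes rose at ZT16 in anti-Ly6G mice, and none passed the test in DT or control mice. The 3 were Dnajb9, Herpud1 and Xbp1, and their changes were small, between 1.16-fold and 1.27-fold. Among all 16786 genes tested with limma, 20.9% passed in either direction in anti-Ly6G mice and 10.6% passed upward, so 3 of 10 is a count on a background where many genes changed. In DT mice 15.3% of all genes passed and in control mice 9.04%. At an unadjusted p under 0.05, the genes counted were 3 in anti-Ly6G, 2 in DT and 1 in control mice. The median change of the 10 genes, ZT16 minus ZT4 on the log2(value + 0.5) scale, was 0.18 in anti-Ly6G, 0.12 in DT and 0.04 in control mice, beside medians of -0.016, -0.0090 and -0.0018 over all genes tested.

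**Figure D1:**
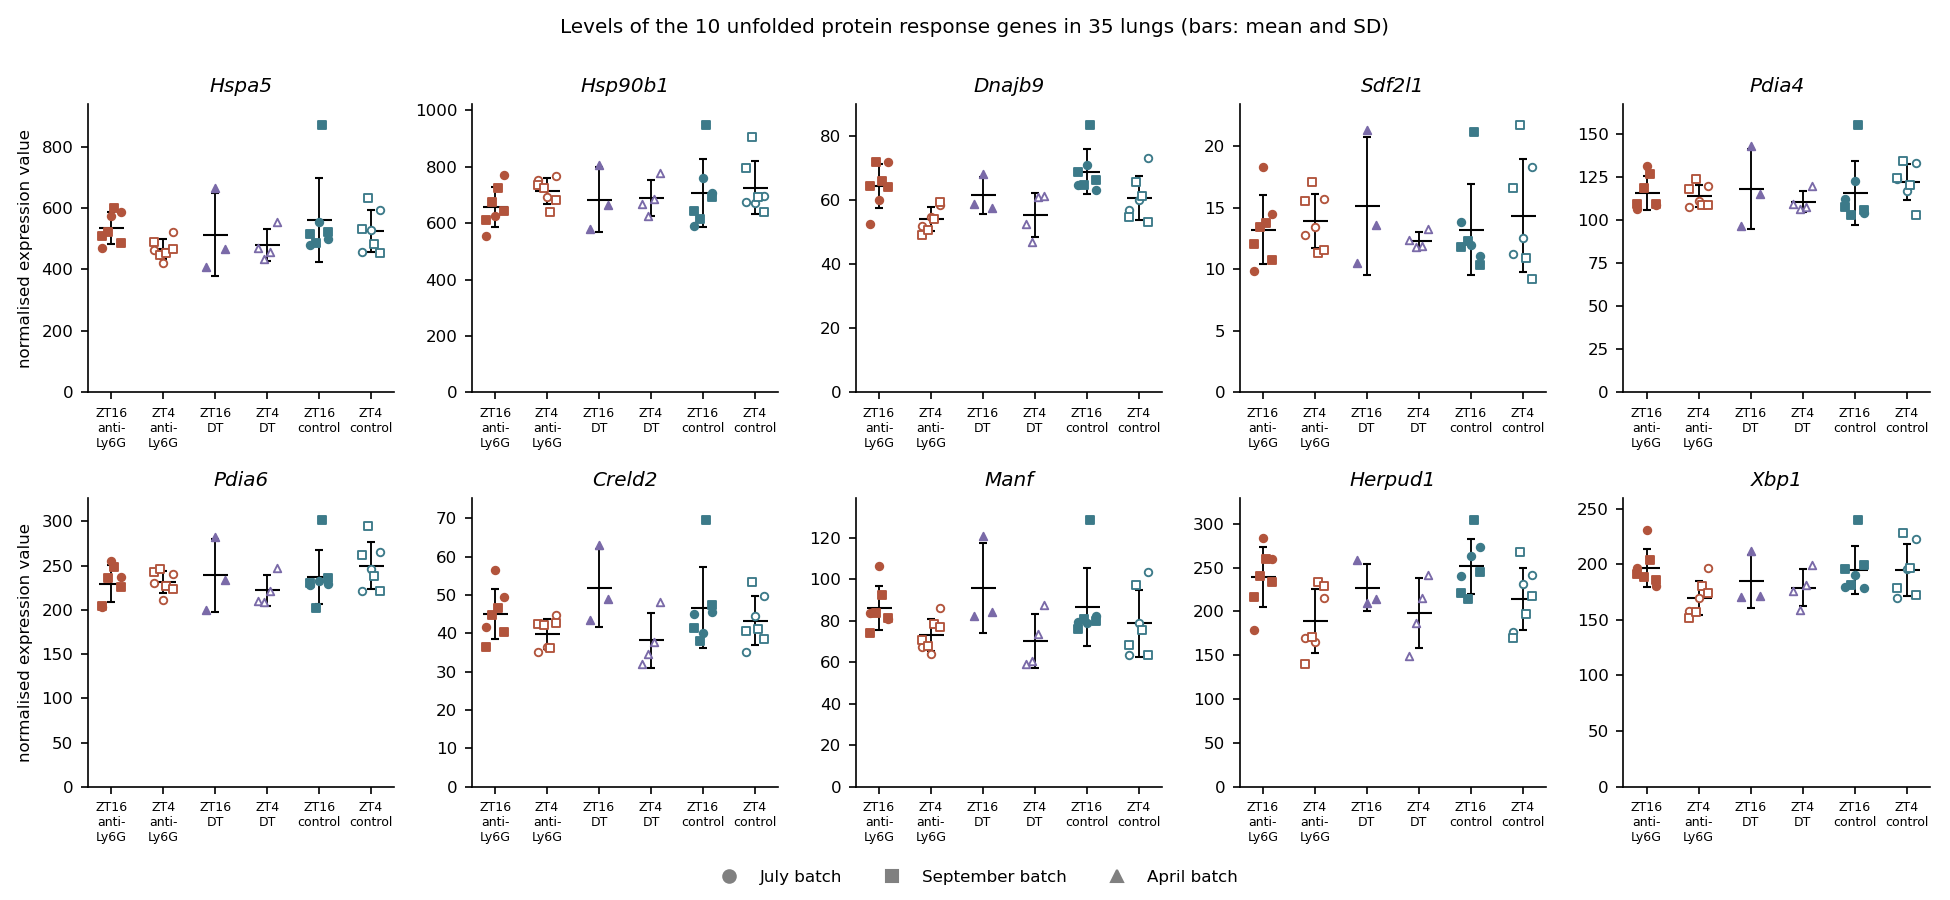
Normalised expression value (y axis, from 0) of each of the 10 genes in each lung, by group, with ZT16 filled and ZT4 open, and the batch as the marker shape; bars are the mean and SD. ZT16 and ZT4 overlap for every gene in every treatment, and the ZT16 control lung with an Hspa5 value of 869 stands above its group.

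Dnajb9 (chr12:44205559-44210326, GRCm38) encodes ERdj4, a co-chaperone of BiP that is induced through XBP1. In anti-Ly6G lungs its values had a lowest of 52.5, a median of 64.4 and a highest of 71.9 at ZT16, against 48.9, 54.0 and 59.2 at ZT4. Of the 7 ZT16 lungs, 6 lay above every ZT4 lung, and 1 lay within the ZT4 range. The log2 change was 0.25 ± 0.08 (SE), or 1.19-fold, with a limma adjusted p of 0.0168. Within batches it was 0.15 among July lungs and 0.32 among September lungs, and the July value did not pass alone (adjusted p = 0.498).

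In DT lungs Dnajb9 had values of 58.7, 68.1 and 57.4 at ZT16, against 52.4, 46.8, 60.8 and 61.2 at ZT4. The ranges overlapped, with a log2 change of 0.15 ± 0.11 (limma adjusted p = 0.354). In control lungs its lowest, median and highest were 63.2, 66.1 and 83.2 at ZT16, against 53.2, 59.9 and 73.0 at ZT4. All 7 ZT16 control lungs were above the ZT4 median, and the log2 change of 0.18 ± 0.07 had a limma adjusted p of 0.124. Without the ZT4 control lung July 5, which was the highest ZT4 control lung, the control change was 0.23 with an adjusted p of 0.0433.

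Herpud1 (chr8:94386438-94395377) encodes HERP, an ER membrane protein of ER-associated degradation. In anti-Ly6G lungs its lowest, median and highest values were 178, 240 and 284 at ZT16, against 139.8, 171 and 233 at ZT4. The ranges overlapped, although 5 of 7 ZT16 lungs lay above every ZT4 lung and all 7 above the ZT4 median. The log2 change was 0.35 ± 0.12, or 1.27-fold (limma adjusted p = 0.0338), and it was 0.38 among July and 0.32 among September lungs.

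Herpud1 had values of 258, 209 and 214 in ZT16 DT lungs, against 149, 187, 215 and 242 in ZT4 DT lungs. All 3 ZT16 values lay above the ZT4 median, and the log2 change of 0.21 ± 0.17 did not pass (limma adjusted p = 0.425). In control lungs the lowest, median and highest were 214, 245 and 305 at ZT16, against 169.8, 217 and 268 at ZT4. Here 6 of 7 ZT16 lungs exceeded the ZT4 median, with a log2 change of 0.24 ± 0.12 (limma adjusted p = 0.214).

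Xbp1 (chr11:5520659-5525893) encodes the transcription factor made active when IRE1 splices its messenger RNA. The table holds 1 value for the gene, so spliced and unspliced forms are not separated. In anti-Ly6G lungs the lowest, median and highest values were 180, 192 and 231 at ZT16, against 152, 169.8 and 196 at ZT4. The ranges overlapped: 3 of 7 ZT16 lungs lay above every ZT4 lung, and all 7 above the ZT4 median. The log2 change was 0.21 ± 0.07, or 1.16-fold (limma adjusted p = 0.0380), with 0.21 among July and 0.22 among September lungs.

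In DT lungs Xbp1 was at 171, 212 and 171 at ZT16, against 176, 159, 181 and 199.7 at ZT4. In control lungs its lowest, median and highest were 179, 190.2 and 240 at ZT16, against 169, 195 and 228 at ZT4. Neither pair of groups was separated, with log2 changes of 0.04 ± 0.11 in DT (limma adjusted p = 0.832) and 0.0036 ± 0.07 in control mice (0.985). Whether the time change differed between treatments was tested directly. For Xbp1 the anti-Ly6G change exceeded the control change by 0.21 (95% interval -0.0044 to 0.43), with an unadjusted limma p of 0.0546 and an adjusted p of 0.833.

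The calls on Herpud1 and Xbp1 were close to the threshold and could be lost with 1 lung fewer, even where the change hardly moved. The Herpud1 call was lost without any 1 of 8 anti-Ly6G lungs (ZT16 July 4, July 5, September 2 or September 3, ZT4 July 2, July 3, September 1 or September 2), with log2 changes of 0.28 to 0.34 and limma adjusted p of 0.0531 to 0.0989. The Xbp1 call was lost without any 1 of 8 (ZT16 July 1, July 4, September 1 or September 3, ZT4 July 2, July 3, September 1 or September 2), with changes of 0.17 to 0.22 and adjusted p of 0.0514 to 0.103. Leaving out 1 lung at a time kept Dnajb9 past the threshold in all 35 fits (adjusted p of at most 0.0439). With quantile normalisation of the values, 1 of the 3 genes passed, Dnajb9, while Herpud1 was at 0.30 (adjusted p = 0.0520) and Xbp1 at 0.16 (0.0971).

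Heat shock genes moved beside these 3. Of 12 listed heat shock genes, 6 rose at ZT16 in anti-Ly6G mice, led by Hspa8, the constitutive HSC70 (log2 change 1.10 ± 0.19, limma adjusted p = 8.62e-05). The summed value of the 12 ranged over 4017 to 6974 at ZT16 and 3019 to 3564 at ZT4, without overlap. B cell markers (6 of 6 lower, 4 past the test) and T cell markers (6 of 6 lower, 3 past the test) fell in the same lungs. Of 8 neutrophil markers there, 1 was higher and 0 passed (median log2 change -0.53). Of all genes tested in anti-Ly6G mice, 10.6% passed upward and 10.4% downward. The 6 B cell markers summed to 29.1 to 75.3 at ZT16 and 56.8 to 141 at ZT4, and the 6 T cell markers to 17.4 to 25.6 at ZT16 and 22.8 to 39.0 at ZT4. The same lists lay in the same directions in control mice, where none of the 10 genes passed. There 12 of 12 heat shock genes were higher at ZT16 and 2 passed (median log2 change 0.47), 6 of 6 B cell markers were lower and 1 passed (-0.74), and 6 of 6 T cell markers were lower and 3 passed (-0.50). Of 8 neutrophil markers in control mice, 0 were higher and 1 passed, downward (-0.91). Of all genes tested in control mice, 4.65% passed upward and 4.38% downward. In DT mice 7 of 12 heat shock genes were higher at ZT16 and 0 passed (median log2 change 0.04). There 1 of 6 B cell and 0 of 6 T cell markers were higher, and 0 of either list passed. Of 8 neutrophil markers in DT mice, 6 were higher and 0 passed. Of all genes tested in DT mice, 5.3% passed upward and 9.98% downward. The part of these genes in the change of Dnajb9, Herpud1 and Xbp1 was not tested.

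**Figure D2:**
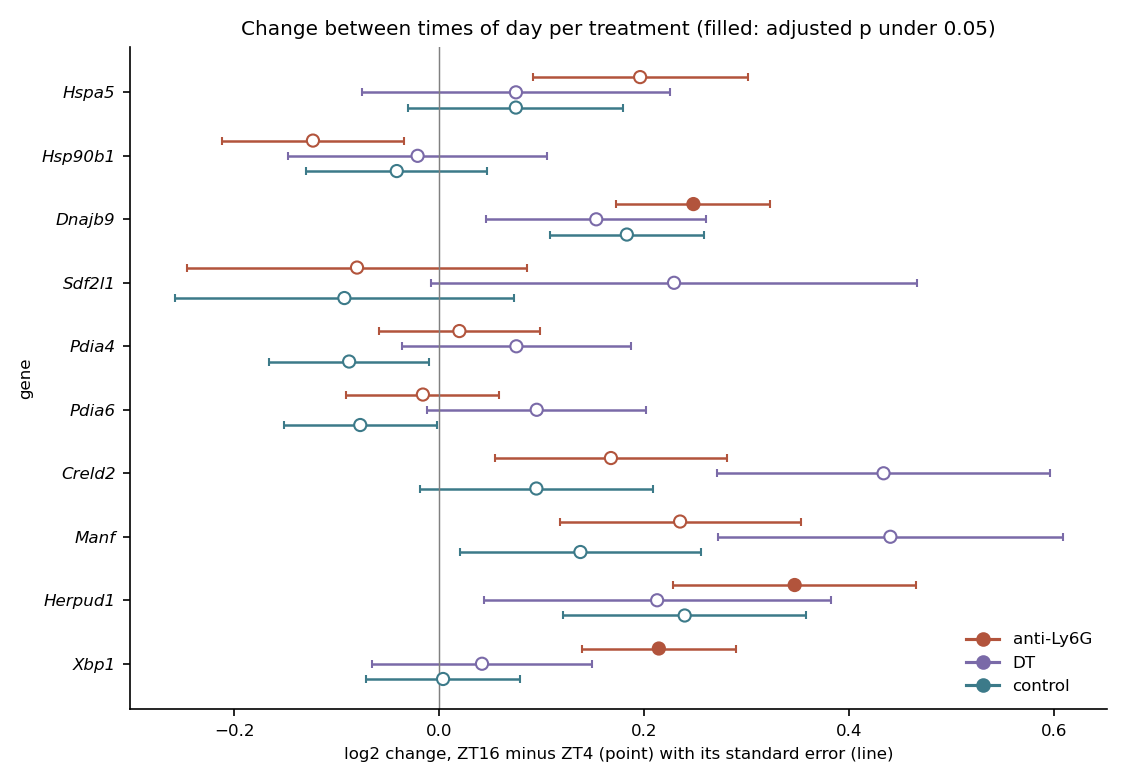
Log2 change, ZT16 minus ZT4 (x axis; point, with its SE as the line), of each gene in anti-Ly6G, DT and control mice; filled points have an adjusted p under 0.05. The filled points are Dnajb9, Herpud1 and Xbp1 in anti-Ly6G mice, at 0.25, 0.35 and 0.21, while Creld2 and Manf lie farthest to the right in DT mice, at 0.43 and 0.44, with open points.

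Creld2 (chr15:88819646-88826683) encodes an ER-resident protein with disulfide isomerase activity, and Manf (chr9:106838312-106891979) a small ER protein that binds BiP and can be secreted. They had the largest time differences among the 10 genes in DT mice. Creld2 was at 43.4, 63.0 and 48.9 in ZT16 DT lungs, against 32.0, 34.6, 37.8 and 48.3 in ZT4 DT lungs. Of the 3 ZT16 lungs, 2 lay above every ZT4 lung. The log2 change was 0.43 ± 0.16 (unadjusted p = 0.0114, limma adjusted p = 0.0650).

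Manf was at 82.3, 120.7 and 84.3 in ZT16 DT lungs, against 59.2, 60.7, 73.5 and 87.4 in ZT4 DT lungs. The highest ZT4 lung, April 4, lay above 2 of the 3 ZT16 lungs. The log2 change was 0.44 ± 0.17 (unadjusted p = 0.0131, limma adjusted p = 0.0714). Both genes stood near the threshold, and single lungs moved them across it. Without April 4 of the ZT4 DT lungs the change was 0.55 for each (adjusted p = 0.0236 for Creld2 and 0.0300 for Manf). Without April 1 of the ZT16 DT lungs Creld2 was at 0.55 (0.0498), and without the ZT16 control lung September 3, which enters the shared spread, both passed with their changes as before (0.0325 for Creld2 and 0.0378 for Manf). Without April 2 of the ZT16 DT lungs the changes were 0.28 for Creld2 and 0.26 for Manf (adjusted p = 0.319 and 0.374). Both genes passed after upper quartile scaling, with changes of 0.47 for Creld2 and 0.48 for Manf (adjusted p = 0.0438 and 0.0477). The time change in DT minus that in control mice was 0.34 for Creld2 (95% interval -0.06 to 0.74) and 0.30 for Manf (-0.11 to 0.72).

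In anti-Ly6G mice Creld2 had a lowest, median and highest of 36.5, 44.7 and 56.4 at ZT16, against 35.1, 42.0 and 44.7 at ZT4, and Manf 74.3, 83.7 and 106 at ZT16, against 64.0, 70.5 and 86.0 at ZT4. All 7 ZT16 anti-Ly6G lungs were above the ZT4 median in Manf, and 4 of 7 in Creld2. The log2 changes were 0.17 ± 0.11 for Creld2 and 0.24 ± 0.12 for Manf, with limma adjusted p of 0.316 and 0.158. In control mice the changes were 0.09 ± 0.11 for Creld2 and 0.14 ± 0.12 for Manf (limma adjusted p = 0.671 and 0.520).

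Hspa5 (chr2:34771970-34777547) encodes BiP, the main ER chaperone and the protein that holds the sensors inactive. In anti-Ly6G lungs its lowest, median and highest values were 469, 522 and 600.2 at ZT16, against 422, 462 and 521 at ZT4. All 7 ZT16 lungs lay above the ZT4 median and 4 above every ZT4 lung, yet the log2 change of 0.20 ± 0.10 did not pass (limma adjusted p = 0.189). It passed at the same change (adjusted p = 0.0298) when the lungs of highest Hspa5 in the ZT16 control, ZT16 DT and ZT4 control groups were left out, which enter only the shared spread. In DT lungs Hspa5 was at 407, 665 and 468 at ZT16, against 470.0, 433, 458 and 555 at ZT4. The ZT16 DT lungs thus held both the lowest and the highest of the 7 DT values.

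In control lungs the lowest, median and highest of Hspa5 were 479.9, 517 and 869 at ZT16, against 453, 529 and 634 at ZT4. Only 2 of 7 ZT16 control lungs were above the ZT4 median, and the positive log2 change of 0.07 ± 0.10 (limma adjusted p = 0.726) rested on 1 lung: without September 3 of the ZT16 control group it was -0.04 (adjusted p = 0.861).

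Hsp90b1 (chr10:86690209-86705509), which encodes the ER member of the HSP90 family, had a negative time difference in anti-Ly6G mice that did not pass. Its lowest, median and highest values there were 555, 642 and 770.4 at ZT16, against 638, 726 and 769 at ZT4. Of the 7 ZT16 lungs, 3 lay below every ZT4 lung and 1 above, with a log2 change of -0.12 ± 0.09 (limma adjusted p = 0.347). The changes were -0.02 ± 0.13 in DT and -0.04 ± 0.09 in control mice.

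The disulfide isomerases Pdia4 (chr6:47796141-47813430) and Pdia6 (chr12:17266545-17284770), which form and rearrange disulfide bonds in new proteins, had time differences below 0.10 in size in all 3 treatments. Pdia4 differed between times by 0.02 ± 0.08 in anti-Ly6G, 0.08 ± 0.11 in DT and -0.09 ± 0.08 in control mice. Pdia6 differed by -0.02 ± 0.07 in anti-Ly6G, 0.10 ± 0.11 in DT and -0.08 ± 0.07 in control mice. Sdf2l1 (chr16:17130138-17132383), an ER protein that works with BiP and its co-chaperones, differed by -0.08 ± 0.17 in anti-Ly6G, 0.23 ± 0.24 in DT and -0.09 ± 0.17 in control mice. The smallest limma adjusted p of these 3 genes over the 3 treatments was 0.538. For Sdf2l1 the 95% interval in DT mice ran from -0.25 to 0.71.

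No gene of the 10 passed the test of a difference in its time change between treatments. The count was 0 of 10 for anti-Ly6G minus control, DT minus control and DT minus anti-Ly6G, by limma at an adjusted p under 0.05, and also 0 of 10 in each at an unadjusted p under 0.05. Among all genes tested, 0% passed for anti-Ly6G minus control (1007 genes at an unadjusted p under 0.05), 13.8% for DT minus control and 19.1% for DT minus anti-Ly6G. These comparisons share lungs. A time change that passed in anti-Ly6G mice alone was therefore not shown to be larger there.

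Antibody treatment by itself also gave no call. By limma, 0 of 10 genes differed between anti-Ly6G and control lungs at ZT4 or at ZT16, on a background of 0% at ZT4 (1185 genes at an unadjusted p under 0.05) and 0% at ZT16 (701 genes). At ZT4 all 10 differences were below 0 in anti-Ly6G lungs, between -0.00072 for Sdf2l1 and -0.19 for Xbp1, and 2 had an unadjusted p under 0.05. The genes vary together over lungs, as given below, so these are not 10 separate observations. With 1 lung left out, the difference reached 0.04 for Hsp90b1 and 0.11 for Sdf2l1, while the other genes stayed below 0. Xbp1 had a median of 169.8 in ZT4 anti-Ly6G lungs and 195 in ZT4 control lungs, with a log2 difference of -0.19 ± 0.07 (unadjusted p = 0.0136, adjusted p = 0.658). Dnajb9 had a median of 54.0 in ZT4 anti-Ly6G lungs and 59.9 in ZT4 control lungs, with a difference of -0.16 ± 0.08 (unadjusted p = 0.0375, adjusted p = 0.689). At ZT16 the differences lay between -0.10 and 0.02, with 0 of 10 at an unadjusted p under 0.05. The change over time was also set against batch: the September minus July difference in time change passed for 0 of 10 genes, at an unadjusted p under 0.05 too, and for 0.0715% of all genes.

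In the wider pathway, 19 of 88 genes of 5 ER lists rose at ZT16 in anti-Ly6G mice and 3 fell. Of all genes tested, 10.6% passed upward and 10.4% downward. Of 10 sensor and protease genes, 4 rose: Atf6 (log2 change 0.20 ± 0.04, limma adjusted p = 0.00135), Atf6b, Ern1, which encodes IRE1, and Mbtps1, the protease that cleaves ATF6. Creb3l1, a relative of ATF6 that is activated by the same cleavage, fell by 0.34 ± 0.08 (adjusted p = 0.00305). Of 22 other ER chaperones and folding enzymes, 6 rose, while Sil1 fell. Among those that rose were Dnajc10, a disulfide reductase (0.21 ± 0.05), Uggt1, a folding checkpoint for glycoproteins (0.25 ± 0.06), and Hyou1, an exchange factor of BiP (0.28 ± 0.09). Of 16 genes of ER-associated degradation, 3 rose, of 20 genes of translocation and transport 2 rose and 1 fell, and of 20 genes of the PERK and ATF4 arm 4 rose, including Ddit3, which encodes CHOP (0.34 ± 0.12).

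In DT mice 10 of the 88 genes rose and 6 fell, while 5.3% of all genes tested passed upward and 9.98% downward. Of the same 10 sensor and protease genes, 0 rose and 2 fell: Mbtps1 (-0.27 ± 0.07, limma adjusted p = 0.00508) and Creb3l2, another relative of ATF6 (-0.32 ± 0.09, 0.0163). Of the 22 other chaperones, 3 rose: the prolyl isomerases Fkbp2 (0.37 ± 0.10) and Fkbp11 (0.53 ± 0.18), and P4hb, a disulfide isomerase (0.18 ± 0.05). In the same DT lungs all 4 club cell markers rose at ZT16, with summed values of 36976 to 45751 at ZT16 and 24987 to 32388 at ZT4, and 4 of 6 endothelial markers fell, with sums of 2472 to 2736 at ZT16 and 3329 to 3967 at ZT4. Of 8 alveolar type 2 markers, 4 fell. The part of these cell types in the changes was not tested. Control mice gave 1 rise (Sec62) and 3 falls (Txndc5, Creb3l1 and Slc7a11) among the 88 genes. Of all genes tested there, 4.65% passed upward and 4.38% downward.

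Across individual lungs, most of the 10 genes varied together, Herpud1 least. For this, each value was taken as its log2 deviation from the mean of its group and batch, so that time, treatment and batch no longer contributed. Over the 45 pairs of genes, Pearson's r had a median of 0.716 and ranged from 0.229 to 0.918, and 86.67% of pairs exceeded 0.5. Over all 140557761 pairs of tested genes the median was 0.0005, and 1.55% exceeded 0.5. Pairs of genes are not independent of each other, since all were measured in the same lungs.

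**Figure D3:**
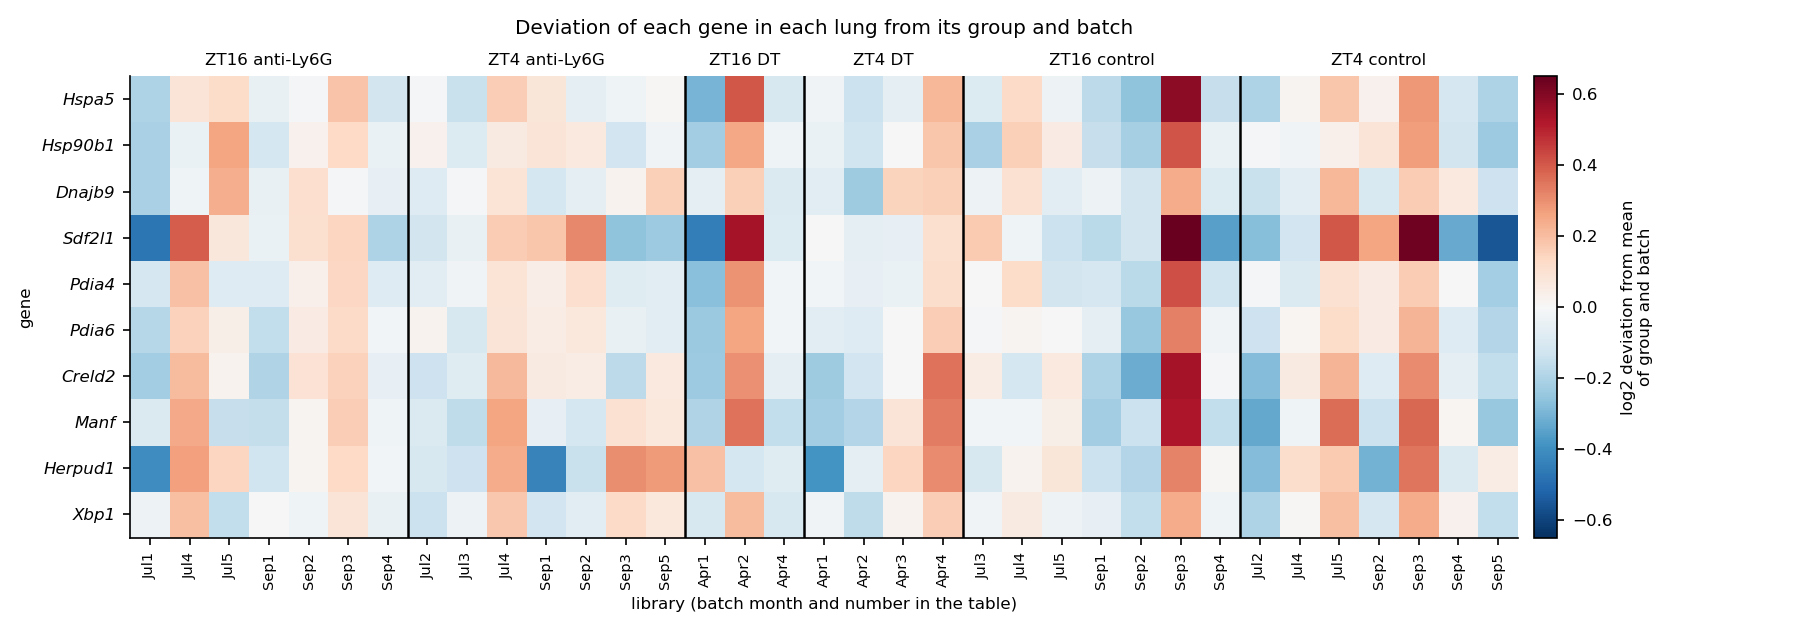
Log2 deviation of each gene (rows) in each lung (columns) from the mean of its group and batch, red above and blue below, with ZT16 to the left of ZT4 in each treatment. Whole columns share a colour: all 10 genes are above their means in 5 lungs (ZT16 control September 3, ZT4 anti-Ly6G July 4, ZT4 DT April 4, ZT4 control September 3 and ZT4 control July 5), and none is in 9 lungs.

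A few lungs carried much of this shared variation. The ZT16 control lung September 3 had the highest value of all 35 lungs for 9 of the 10 genes and the highest of its group for all 10, with deviations of 0.24 for Dnajb9 and Xbp1 to 0.64 for Sdf2l1. The ZT4 control lung September 3 was highest for the remaining gene, Sdf2l1, and among the top 5 lungs for 9 genes. The ZT16 DT lung April 2 and the ZT4 control lung July 5 were among the top 5 for 8 genes each. Within its group, the ZT4 DT lung April 4 was highest for all 10.

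Other measures also stood out in some of these lungs, though not in the same direction in all of them. The 12 heat shock genes summed to 12898 in the ZT16 control lung September 3, against 2966 to 6974 in the other 34 lungs. Its 6 B cell markers summed to 18.3, the lowest of all lungs, and its 6 T cell markers to 12.9, also the lowest. Its 8 neutrophil markers, at 26.3, were the lowest of the ZT16 control group, whereas the ZT4 control lung September 3 had the highest of all, at 776. Both lungs were high in most of the 10 genes, and the neutrophil markers went as low as 23.0 in ZT16 anti-Ly6G lungs. The part of neutrophils in these levels was not tested. The B cell sum was 35.8 in the ZT4 control lung September 3, the lowest of its group. In the ZT16 DT lung April 2 it was 84.4, the highest of its group. The sum of all values in a library also varied with Hspa5 (r = 0.63, permutation p = 0.00084, rho = 0.60, n = 35), and it was 0.97 among July, 0.61 among September and 0.36 among April lungs. That sum was 1 of 3 library measures compared, and the other two had r of -0.27 and 0.11 (permutation p = 0.0868 and 0.595). When every library was scaled to the same sum, the median r of the 45 pairs was 0.683.

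Hspa5 was then used as the common scale. In a limma fit with a mean for each group and batch and the Hspa5 value of the lung as a covariate, 8 of the other 9 genes rose with Hspa5 at an adjusted p under 0.05. Of the 16785 genes tested, 1.14% passed in either direction and 0.941% upward. The slope, the log2 change of a gene per log2 unit of Hspa5, had a median of 0.65 over the 9 genes and of 0.01 over all genes. Leaving out 1 lung at a time left 7 or 8 of the 9 genes past the threshold. Without the lungs of highest Hspa5 in the ZT16 control, ZT16 DT and ZT4 control groups together, 3 of 9 passed and all 9 had an unadjusted p under 0.05, and among the 12 July lungs alone 0 of 9 passed by limma, with 8 at an unadjusted p under 0.05. The slopes of the 9 genes then lay between 0.53 and 1.26 without those 3 lungs and between 0.41 and 1.39 among July lungs.

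Sdf2l1 had the steepest slope of the 9, 1.30 ± 0.18 (limma adjusted p = 2.20e-05), and Manf and Creld2 followed at 0.95 ± 0.12 and 0.91 ± 0.11. These 3 genes also spread widely over lungs: the highest lung was 2.35 times the lowest for Sdf2l1 and 2.17 times for Manf and for Creld2. Such a spread was not particular to them. It was 2.18 times for Herpud1, whose slope was 0.51, and 2.13 times for Hspa5 itself. The chaperone Hsp90b1 had a slope of 0.73 ± 0.08, and the isomerases Pdia4 and Pdia6 had 0.65 ± 0.08 and 0.65 ± 0.06. Xbp1 and Dnajb9 had the shallowest slopes that passed, 0.51 ± 0.09 (adjusted p = 0.00113) and 0.48 ± 0.10 (0.00527). Without the ZT16 control lung September 3, Dnajb9 had a slope of 0.52 and an adjusted p of 0.0681.

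By correlation with Hspa5, Pdia6 stood closest of the 9, with r = 0.92 (permutation p = 1.0e-05, the smallest the 100000 permutations can give) and rho = 0.89. Its r was 0.90 among 12 July lungs, 0.90 among 16 September lungs and 0.97 among 7 April lungs, and 0.88 without the 2 lungs farthest from the median in Hspa5. Hsp90b1, Pdia4, Creld2, Manf and Sdf2l1 had r of 0.89, 0.87, 0.87, 0.84 and 0.82, and Xbp1 and Dnajb9 0.75 and 0.71. Without those 2 lungs the r of these 7 genes lay between 0.65 and 0.84. Their values within batches were all above 0.5, the lowest being 0.54 for Pdia4 among July lungs. All 9 relations with Hspa5 were computed, and the adjusted p of each is that of the slope.

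**Figure D4:**
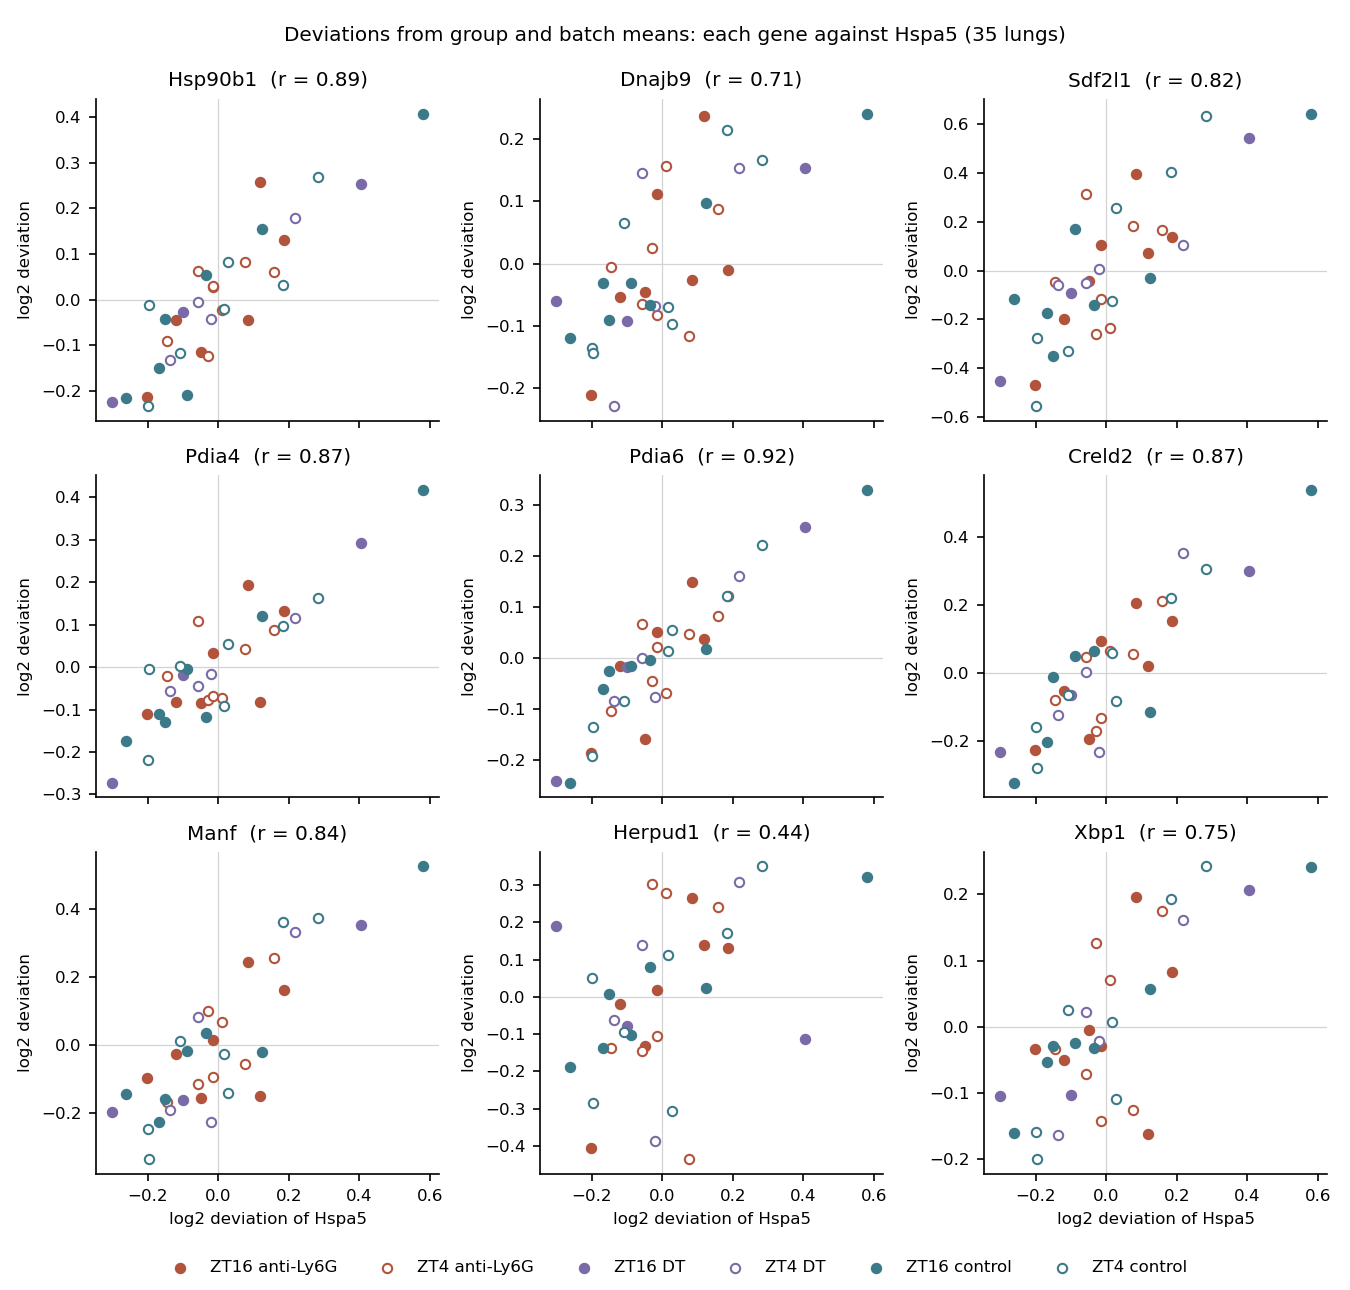
Log2 deviation of each of the other 9 genes (y axis) against that of Hspa5 (x axis) in 35 lungs, each from the mean of its group and batch; ZT16 filled, ZT4 open, colour by treatment, r in each title. The points rise together for 8 genes, with r of 0.71 to 0.92, and scatter for Herpud1, with r = 0.44.

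Herpud1 was the exception. Its slope on Hspa5 was 0.51 ± 0.19 with an unadjusted p of 0.0129 and a limma adjusted p of 0.251, and its r was 0.44 (permutation p = 0.0133, rho = 0.47). The relation was not alike in the batches: r was 0.89 among July lungs, 0.48 among September lungs and -0.06 among April lungs. In the ZT16 DT group the lung with the highest Herpud1 value, April 1 at 258, had the lowest Hspa5 value, 407. Herpud1 had the lowest median r with the other 9 genes, 0.440, and its highest r with any of them was 0.643. Its slope estimate was close to those of Xbp1 and Dnajb9, while its SD within group and batch was 0.25 log2 units, against 0.15 for each of those genes.

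The 10 genes whose deviations were most like those of Hspa5, out of 16785, were Hyou1, Hspd1, Canx, Hsp90ab1, Stip1, Pdia6, St13, Serpinh1, Hsph1 and Dnaja4, with r of 0.94 to 0.90 over 35 lungs. Hyou1 (r = 0.94), Canx, the lectin chaperone calnexin (0.93), Pdia6 and Serpinh1, the collagen chaperone HSP47 (0.91), act in the ER. Hspd1 is a mitochondrial chaperonin (0.94), and Hsp90ab1 (0.93), Stip1, St13, Hsph1 and Dnaja4 are cytosolic chaperones or co-chaperones. The other members ranked 18 for Hsp90b1, 22 for Pdia4, 23 for Creld2, 30 for Manf, 41 for Sdf2l1, 60 for Xbp1, 83 for Dnajb9 and 794 for Herpud1.

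Over the lists, slopes on Hspa5 were concentrated in a subset of ER genes and in heat shock genes. All 12 heat shock genes passed upward, with a median slope of 1.55, and the inducible HSP70 genes Hspa1b (4.27 ± 0.58) and Hspa1a (3.86 ± 0.50) were steepest. These are near-identical copies, so their separate values are uncertain, and Hspd1 and Hspe1 of that list act in mitochondria. Of the 22 other ER chaperones and folding enzymes, 6 passed upward: Hyou1 (0.74 ± 0.06), Calr, which encodes calreticulin (0.71 ± 0.08), Pdia3 (0.49 ± 0.06), Canx (0.48 ± 0.05), Dnajc3 (0.41 ± 0.08) and Dnajb11 (0.35 ± 0.07). Of 16 genes of ER-associated degradation 2 passed, the ubiquitin ligase gene Syvn1 (0.63 ± 0.10) and Edem1 (0.49 ± 0.10), and of 20 genes of translocation and transport 1 passed, Mcfd2.

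Of the 10 sensor and protease genes, 0 passed the limma slope test, with 1, Creb3l2 (0.24 ± 0.11), at an unadjusted p under 0.05. Since 1.14% of all genes passed that test, a count of 0 does not set these genes apart. Of 20 genes of the PERK and ATF4 arm 1 passed, Ddit3 (0.70 ± 0.15, limma adjusted p = 0.0127), while Atf4 had a slope of 0.37 ± 0.11 and an adjusted p of 0.110. Of the 65 cell type markers tested, 0 passed by limma, beside the same 1.14% of all genes, with 7 at an unadjusted p under 0.05. Among the cell type lists, those with the largest median slopes in size were B cell markers, -0.96 with 0 of 6 above 0, and T cell markers, -0.40 with 0 of 6 above 0. Plasma cell markers, 7 of 8 tested, had a median slope of -0.01, alveolar type 2 markers -0.04, and neutrophil markers 0.11.

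**Figure D5:**
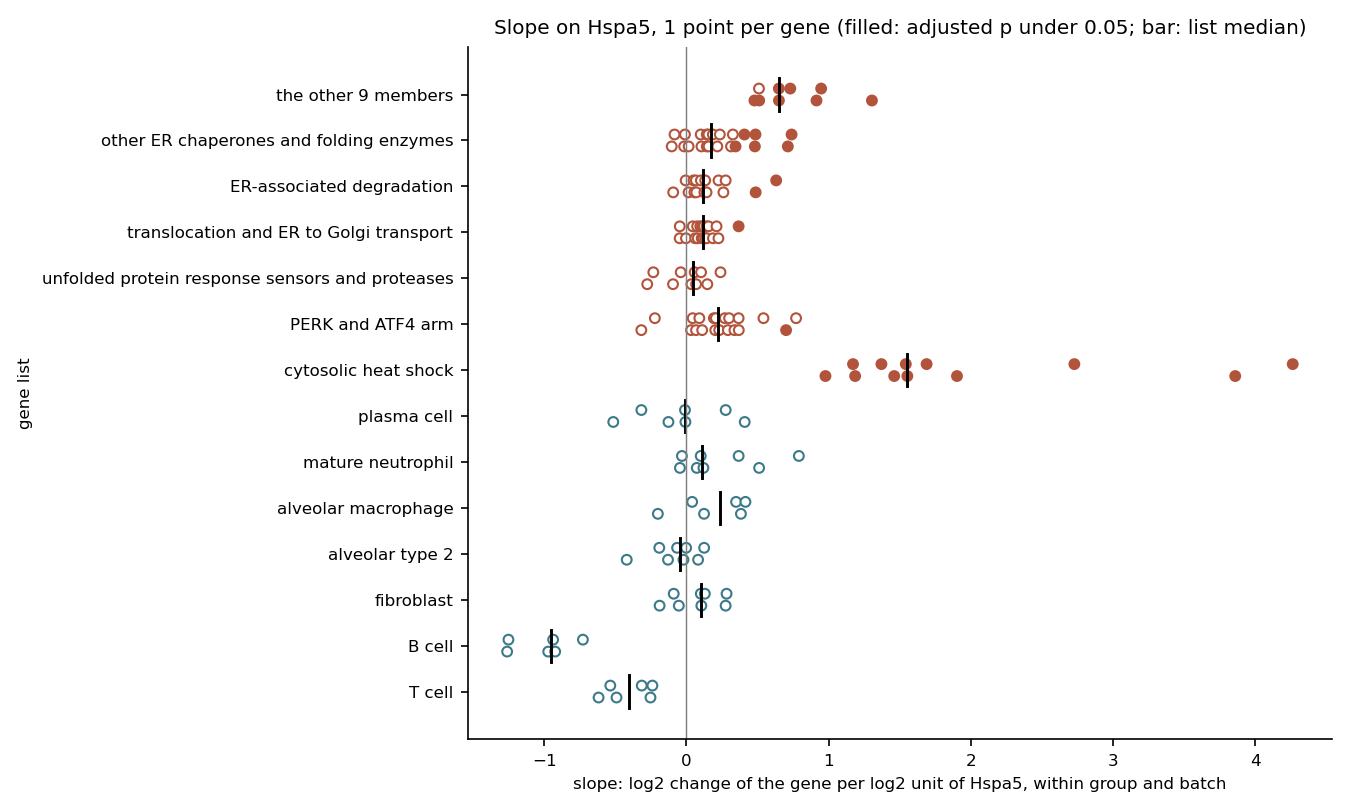
Slope on Hspa5 (x axis, log2 change per log2 unit of Hspa5 within group and batch) of each gene of 14 lists (rows), filled where the adjusted p is under 0.05, with the list median as a bar. The other 9 members have a median of 0.65, heat shock genes one of 1.55, and sensors and cell type markers hold open points.

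Part of the exonic sequence of some of the genes overlaps other annotated genes, and whether reads were counted by strand is not stated. The shared bases were 632 of 4032 for Hsp90b1, 326 of 3524 for Manf, 50 of 3745 for Pdia6 and 14 each for Dnajb9 and Pdia4, so the values of Hsp90b1 and Manf are the least certain in that respect. The other 5 genes shared none.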

How the data were processed

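The labels' protocols describe RNA of the left lung lobe, a kit for amplifying RNA of single cells, and Illumina sequencing, for 35 lungs. The submitters' processing notes list GRCm38 as the build and, among tools, kallisto 0.43.1, RSEM 1.2.20, cutadapt and CASAVA 1.8.2, and do not tie a tool to a step. The table the authors deposited holds normalised values per gene that are not whole numbers, handled as a signal that is never negative, so a test on counts did not apply. The normalisation, and any prior correction for batch, was not given in the sources used here. Read depth is unknown, so no counting interval is given. Columns name a group and batch but no single sample, and 0 value columns were left unmapped.

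Genes were tested if 3 or more libraries reached a value of 1, which removed 5425 and left 16786. The model was limma 3.58.1 (R 4.3.3) with a mean-variance trend on log2(value + 0.5), a scale that understates changes of low genes. For time and depletion it held group means and a coefficient for batch (28 residual degrees of freedom). For slopes it held group and batch means and the Hspa5 value (24), and for the batch comparison the same means alone (25). Tests were two-sided, with Benjamini-Hochberg adjustment over all genes tested and a threshold of 0.05, and the code was tested on simulated data. P-values measure the spread between these samples. Correlations were permuted 100000 times within group and batch (Python 3.11.15, numpy 2.4.6). Promoter windows came from RefSeq and gene coordinates from the GENCODE annotation of GRCm38.

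The 10 genes and the lists were chosen with earlier results of these data known. Other genes named were up to 4 of smallest p per list and time contrast and the 10 of highest r with Hspa5. Syvn1, Calr, Pdia3, Dnajb11, Mcfd2, Atf4, Hspe1 and Sftpc fell outside that rule and were chosen after their values were seen. Alternatives were the pseudocount, the filter, the batch term, the scaling, the libraries included and a robust trend.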

Additional observations from a re-analysis of the deposited data

Results flagged for a closer look

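In the ZT16 control group, 1 lung, September 3, stood far above the other 6 for 8 of the 10 genes. The measure was the gap to the next highest lung divided by the range of the group of 7, which is above 0.568 for about 1 in 20 groups by chance. The ratio was 0.857 for Manf, 0.753 for Hspa5, 0.640 for Creld2, 0.636 for Xbp1, 0.617 for Pdia6, 0.599 for Sdf2l1, 0.584 for Dnajb9 and 0.571 for Pdia4. In values, Manf was at 129 in that lung and had a median of 79.9 in its group, and Hspa5 was at 869 with a median of 517. The 8 ratios came from 1 lung and from genes that vary together, so they are not 8 separate observations. They were the ratios past the critical value among 50 combinations of gene and group, and the 3 ZT16 DT lungs were too few to be assessed.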

How the results depend on the processing

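No paired analysis was possible because the columns of the table could not be matched to the numbered samples of the labels. In anti-Ly6G mice, the count of genes that passed between times, 3 of 10 as reported, was 1 with quantile normalisation, 0 among July lungs alone and 1 among September lungs alone, where fewer lungs entered, and 1 to 3 when 1 lung was left out at a time. With equal library sums, an alternative chosen after seeing the data, Xbp1 was at 0.18 (adjusted p = 0.0604) and 2 genes passed, and without the 3 lungs of highest Hspa5 (also chosen after seeing the data) 4 passed, Hspa5 being added. In DT mice the count, 0 as reported, was 2 (Creld2 and Manf) with upper quartile scaling, with quantile normalisation and with equal library sums, and 0 to 2 when 1 lung was left out. In control mice it was 0 to 1 over the left-out lungs, and 0 in each of the other 13 settings. The count of genes with a slope on Hspa5, 8 of 9, was 0 among July lungs alone (8 of 9 at an unadjusted p under 0.05) and 3 in an alternative chosen after seeing the data, without the lung of highest Hspa5 in the ZT16 control, ZT16 DT and ZT4 control groups (9 of 9). Other settings of that count gave 6 to 8. The median r of the 45 pairs lay between 0.560 and 0.795 over the other settings and between 0.655 and 0.762 over the left-out lungs. No called value changed its sign. Counts of 0 for the differences between treatments, depletion and batch, at an adjusted p under 0.05, were 0 under every setting run. At an unadjusted limma p under 0.05, DT minus control gave 3 of 10 with quantile normalisation and 1 with equal library sums. Without the 3 lungs of highest Hspa5, DT minus anti-Ly6G gave 2 and anti-Ly6G minus control 1. With equal library sums, anti-Ly6G minus control also gave 1. Unknown depth and unknown normalisation limit how far small changes can be trusted, and the cause of the lost calls under other scalings was not tested.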
